A study of Mus musculus with 6 samples.

Results

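The polyamine synthesis genes are 9 of the 21139 genes listed in the deposited table: Odc1, Amd1, Srm, Sms, Oaz1, Oaz2, Azin1, Sat1 and Dhps. Each was found by its symbol. They were chosen from pathway knowledge with earlier results of the same comparison in view, namely the differences between CpdA and medium libraries, so those differences are given below as a description and support nothing. RNA was sequenced from CD4+ T cells of the spleen of C57BL/6J mice. All cells had received 2 days of activation through CD3 and CD28 (anti-CD3 and anti-CD28), either with CpdA, which the series' design calls an agonist of the fatty acid receptor Gpr120 (3 libraries), or in medium alone (3 libraries). The dose is labelled 20 microm, read here as µM. The labels used here give neither the age of the mice nor a vehicle. They also do not say that replicates are different mice or wells, so each p-value reflects library-to-library spread alone, which may be technical.

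Polyamines (putrescine, spermidine and spermine) are small positively charged molecules that bind nucleic acids and are needed for protein synthesis and proliferation. Activated T cells are known to raise their polyamine synthesis under the control of MYC. Ornithine decarboxylase (Odc1) makes putrescine. S-adenosylmethionine decarboxylase (Amd1) supplies the aminopropyl groups that spermidine synthase (Srm) and spermine synthase (Sms) then add. Antizymes (Oaz1, Oaz2) bind ornithine decarboxylase, send it to the proteasome and limit polyamine uptake, and the antizyme inhibitor (Azin1), a relative of ornithine decarboxylase without enzyme activity, titrates them. Spermidine/spermine acetyltransferase (Sat1) starts the breakdown and export of polyamines. Deoxyhypusine synthase (Dhps) uses spermidine to modify the translation factor eIF5A.

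The level of several of these proteins is set by translation, and the sequences that do so are shown because mRNA counts do not report on them. Antizyme mRNAs are translated in full only when ribosomes shift frame at a stop codon, which polyamines favour. The stretches of 30 bases around that site in the GENCODE M21 models of Oaz1 (GRCm38, plus strand, chr10:80828283-80828312) and Oaz2 (plus strand, chr9:65686260-65686289) are given 5′ to 3′, with the codon before the stop and the stop itself in capitals. They are identical at 27 of 30 bases.

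Oaz1: cggtggtgcTCCTGAtgtccctcacccacc

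Oaz2: ctgtggtgcTCCTGAtgcccctcacccact

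The Amd1 mRNA carries a short upstream reading frame of 6 sense codons near its 5′ end, known in mammals to stall ribosomes when polyamines are plentiful. It lies at chr10:40302155-40302175 (GRCm38, minus strand), begins at base 12 of the GENCODE transcript and ends 296 bases before the main start codon. Its start and stop codons are in capitals.

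Amd1 upstream frame: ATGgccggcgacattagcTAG

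The promoters of Amd1, which differed between the groups, and Odc1, which did not pass the test, are set side by side as the 250 bases before the RefSeq start (GRCm38.p6). GGGCGG or its reverse complement CCGCCC, the core of the GC box, is in capitals. The Amd1 window (chr10:40302189-40302438, minus strand) was 64.4% G and C with 1 match, 74 bases before the start. The Odc1 window (chr12:17544623-17544872, plus strand) was 80.0% G and C with 4 matches, 238, 116, 88 and 15 bases before the start.

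Amd1: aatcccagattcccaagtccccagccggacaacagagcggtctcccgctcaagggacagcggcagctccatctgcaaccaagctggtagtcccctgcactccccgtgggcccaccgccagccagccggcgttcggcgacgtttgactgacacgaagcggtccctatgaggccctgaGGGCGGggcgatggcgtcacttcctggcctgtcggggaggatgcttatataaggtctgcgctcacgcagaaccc

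Odc1: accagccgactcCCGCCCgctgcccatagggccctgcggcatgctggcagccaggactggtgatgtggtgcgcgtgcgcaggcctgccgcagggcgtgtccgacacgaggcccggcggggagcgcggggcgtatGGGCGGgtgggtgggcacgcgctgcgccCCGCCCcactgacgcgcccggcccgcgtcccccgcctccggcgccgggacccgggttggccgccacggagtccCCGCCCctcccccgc

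Promoter windows in the RefSeq table were found for 7 of the 9 genes, with a second start for Sms, so 8 windows in all. Srm and Azin1, both higher with CpdA, had no window, so the counts of matches below do not cover them. A GC box core lay in 5 of these 8 windows, against 32.7% of all 32851 windows of the same length. The palindrome CACGTG is the E-box that MYC and MAX bind. In the 300 bases from 250 before to 50 after the start, it was found in 1 of the 8 windows, against 7.15% of all windows. That window belongs to Sms, whose other window had none. The RefSeq start used for Oaz2 lies 8547 bases from the deposited start of the gene, and that of the second Sms window 919 bases. A match is a description of these letters, and their absence from this window says nothing about binding elsewhere, such as in introns.

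Library totals ran from 21407172 to 25952169 counts with CpdA and from 20247761 to 23640735 counts in medium. Cd4, the defining marker of the labelled cell type, averaged 107 ± 0.744 FPKM with CpdA and 122 ± 1.82 FPKM in medium (SD, n = 3 each). The 10 CD4 T cell markers summed to 1929 to 1981 FPKM with CpdA and 2036 to 2077 FPKM in medium. By the test described below, 1 of them was higher and 7 were lower, where 16.5% of all tested genes were higher and 16.7% lower. The 5 B cell markers, 1 of them higher by the test, summed to 13.6 to 16.3 FPKM with CpdA and 13.9 to 16.8 FPKM in medium. The 2 CD8 T cell markers summed to 4.72 to 5.92 FPKM with CpdA and 5.12 to 5.8 FPKM in medium. The 5 dendritic cell markers summed to 1.37 to 1.6 FPKM with CpdA and 1.2 to 1.3 FPKM in medium. NK cell, macrophage and erythroid markers stayed at or under 1.59 FPKM in every library, and 1 macrophage marker was lower by the test. The groups overlapped for all of these sums except those of CD4 T cells and dendritic cells, whose part in the results below was not tested.

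With CpdA, transcripts of Amd1, Srm and Azin1 were higher and those of Sat1 were slightly lower, while Odc1, Sms, Oaz1, Oaz2 and Dhps did not pass the test. All 9 genes passed the filter on low counts, with at least 601 counts in every library. By edgeR's quasi-likelihood test, adjusted over 13507 tested genes with the Benjamini-Hochberg method (threshold 0.05), 3 of the 9 rose and 1 fell. Among all tested genes 33.2% changed, 16.5% upwards and 16.7% downwards. The median log2 fold change of the 9 genes was 0.02, and that of all tested genes 0.000. The FPKM values of the groups did not overlap for 6 of the 9 genes, against 43.9% of tested genes. Since the genes were chosen with this comparison known, nothing is read from these counts. In bulk RNA, fewer cells of a type and less RNA per cell cannot be told apart.

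**Figure D1:**
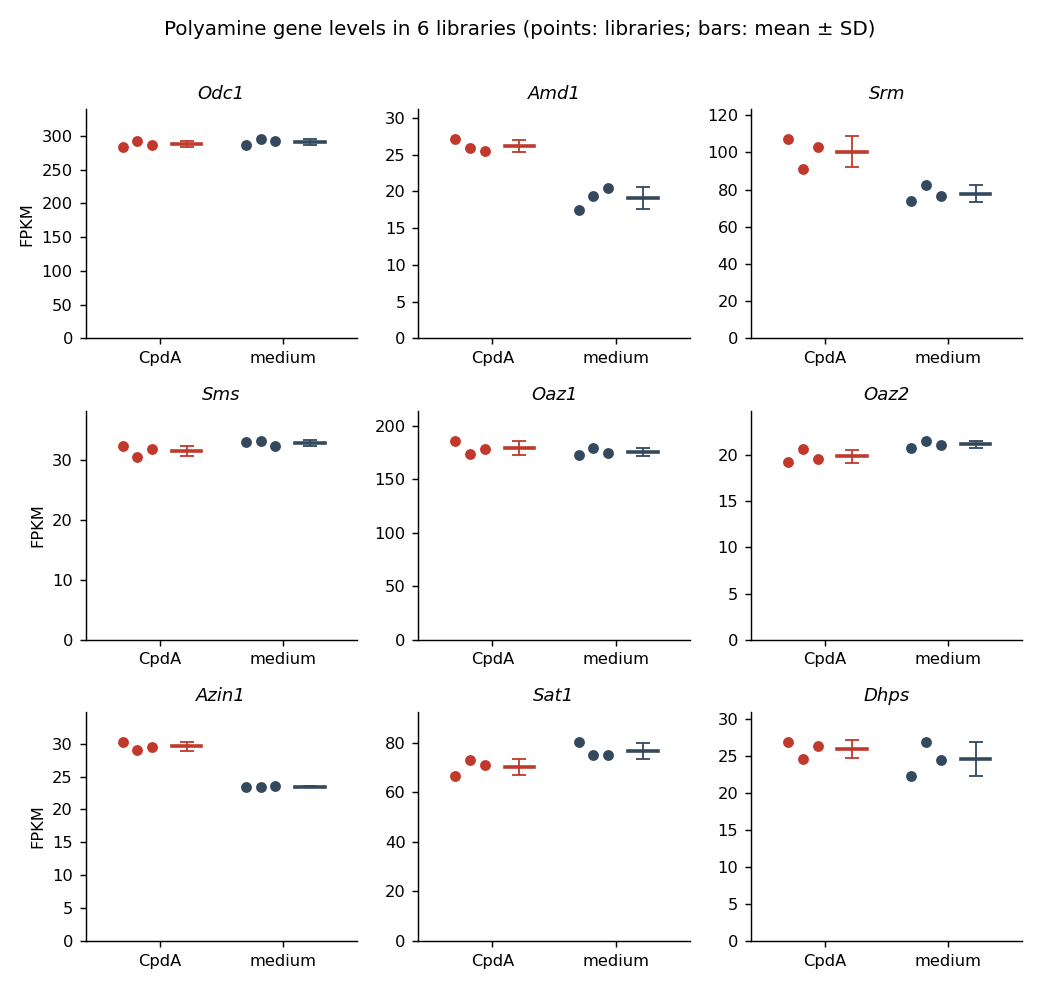
FPKM (y axes, from 0) of the 9 genes in the 3 CpdA libraries and the 3 medium libraries, each point 1 library and each bar the mean ± SD. The CpdA points lie above all medium points for Amd1, Srm and Azin1 and below them for Sms, Oaz2 and Sat1, while those of Odc1, Oaz1 and Dhps overlap.

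Odc1 (ENSMUSG00000011179, chromosome 12, 17544873 to 17551502, GRCm38), the rate-limiting first enzyme, had the highest FPKM of the 9 genes. It had 283, 292 and 287 FPKM with CpdA and 286, 295 and 293 FPKM in medium. The ranges overlap, and the log2 fold change was -0.03 ± 0.03 (SE), with a 95% interval from -0.08 to 0.03 (adjusted p = 0.456, edgeR).

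Amd1 (ENSMUSG00000075232, chromosome 10, 40287458 to 40302188), the other regulated decarboxylase, had the largest fold change of the 9. It had 27.1, 25.9 and 25.5 FPKM with CpdA, against 17.5, 19.4 and 20.4 FPKM in medium. The lowest CpdA library stood above the highest medium library, and medium replicate 1 was the lowest of all. The log2 fold change (a log2 difference of CpdA minus medium) was 0.44 ± 0.05 (SE), or 1.36-fold (adjusted p = 1.4e-09, edgeR), and 3.30% of tested genes had a larger one. Without medium replicate 1 it was 0.38 and without medium replicate 3 it was 0.49.

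Srm (ENSMUSG00000006442, chromosome 4, 148591503 to 148594993), which makes spermidine, also rose. It had 107, 90.9 and 103 FPKM with CpdA and 73.7, 82.6 and 76.7 FPKM in medium. The groups did not overlap, though CpdA replicate 2 and medium replicate 2 came close to each other. The log2 fold change was 0.36 ± 0.05 (SE), or 1.28-fold (adjusted p = 1.3e-05, edgeR), and ranged from 0.31 to 0.42 when 1 library was left out at a time. Sms (ENSMUSG00000071708, chromosome X, 157443855 to 157492287), the next synthase of the chain, had 32.2, 30.5 and 31.7 FPKM with CpdA and 32.9, 33.2 and 32.3 FPKM in medium. All 3 CpdA libraries were below the medium libraries by a narrow margin, and the log2 fold change was -0.07 ± 0.04 (SE, 95% interval -0.14 to 0.004, adjusted p = 0.142, edgeR).

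The antizyme genes did not pass the test. Oaz1 (ENSMUSG00000035242, chromosome 10, 80826656 to 80829290), the general antizyme, had 186, 173 and 178 FPKM with CpdA and 172, 179 and 174 FPKM in medium. The groups overlap, and the log2 fold change was 0.02 ± 0.03 (SE, 95% interval -0.04 to 0.08, adjusted p = 0.625, edgeR). Oaz2 (ENSMUSG00000040652, chromosome 9, 65668001 to 65690300), a second antizyme, had 19.3, 20.7 and 19.6 FPKM with CpdA and 20.8, 21.6 and 21.1 FPKM in medium. Its CpdA libraries lay just under the medium libraries (log2 fold change -0.10 ± 0.05 SE, 95% interval -0.21 to 0.01, edgeR adjusted p = 0.154).

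Azin1 (ENSMUSG00000037458, chromosome 15, 38487430 to 38519266), whose protein frees ornithine decarboxylase from antizyme, rose. It had 30.3, 29.0 and 29.5 FPKM with CpdA, against 23.4, 23.4 and 23.6 FPKM in medium. The libraries of each group were nearly equal and the groups were far apart. The log2 fold change was 0.33 ± 0.03 (SE, adjusted p = 6.5e-10, edgeR), and 6.56% of tested genes had a larger one.

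Sat1 (ENSMUSG00000025283, chromosome X, 155213132 to 155216449), the catabolic acetyltransferase, had 66.7, 73.2 and 70.9 FPKM with CpdA and 80.4, 75.0 and 74.9 FPKM in medium. The groups did not overlap, but CpdA replicate 1 and medium replicate 1 were the extremes. The log2 fold change was -0.13 ± 0.04 (SE, adjusted p = 0.00913, edgeR). This call rests on those libraries: without CpdA replicate 1 the log2 fold change was -0.10 (adjusted p = 0.0853), and without medium replicate 1 it was -0.10 (adjusted p = 0.0920). Dhps (ENSMUSG00000060038, chromosome 8, 85071757 to 85075162), the first hypusine enzyme, had 26.9, 24.6 and 26.3 FPKM with CpdA and 22.3, 26.9 and 24.5 FPKM in medium. The groups overlap, and its interval was the widest of the 9, at a log2 difference of 0.07 ± 0.06 (SE, 95% interval -0.06 to 0.19, adjusted p = 0.456, edgeR).

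**Figure D2:**
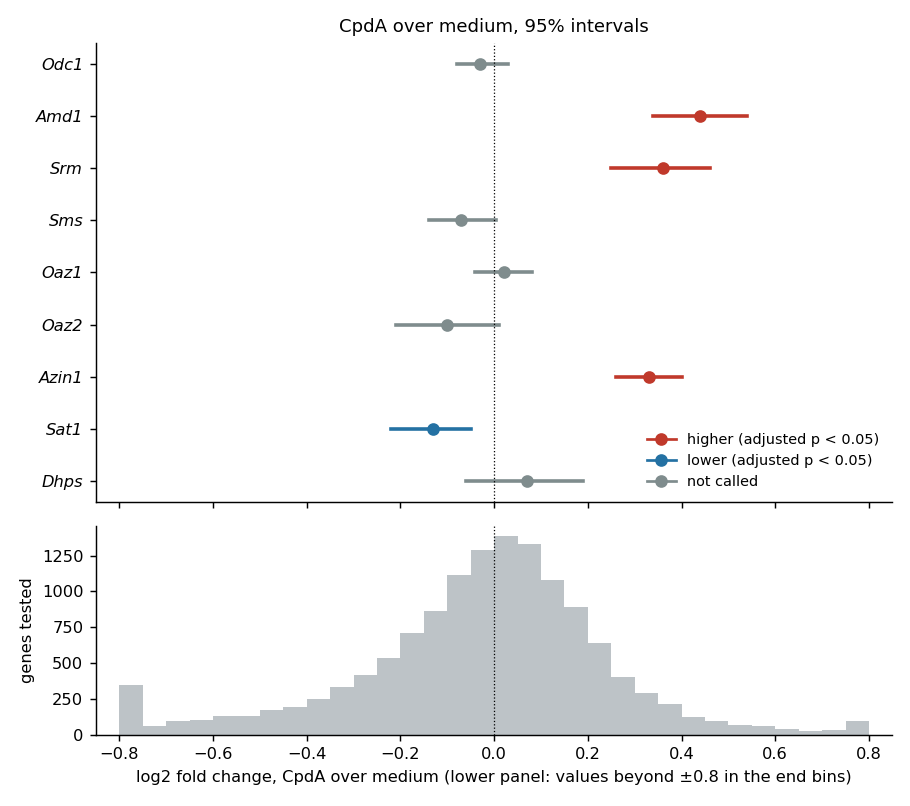
Upper panel: log2 fold change of CpdA over medium (x axis) for the 9 genes, points with 95% intervals, coloured by the call at an adjusted p of 0.05. Lower panel: the number of tested genes (y axis) at each log2 fold change; the end bins hold all values beyond the axis. Amd1 (0.44), Srm (0.36) and Azin1 (0.33) lie on the right flank of the distribution of all 13507 genes, Sat1 (-0.13) lies left of 0, and the intervals of the other 5 genes include 0.

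Levels can be set against each other between genes only per length, on the FPKM scale. In the order of their means, the CpdA libraries had Odc1 (287 FPKM), Oaz1 (179), Srm (100.4), Sat1 (70.3), Sms (31.5), Azin1 (29.6), Amd1 (26.2), Dhps (26.0) and Oaz2 (19.9). The medium libraries had Odc1 (291 FPKM), Oaz1 (175), Srm (77.7), Sat1 (76.7), Sms (32.8), Dhps (24.6), Azin1 (23.5), Oaz2 (21.2) and Amd1 (19.1). Neighbours whose libraries overlap were Amd1 and Dhps with CpdA, and Srm and Sat1 as well as Dhps and Azin1 in medium. Amd1 thus stood last in medium and above Oaz2 with CpdA.

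The order of Odc1 and Oaz1 depends on the length used, as does that of Srm and Sat1 in medium. The deposited length of Oaz1, 2526 bases, is that of a GENCODE model with a retained intron, whereas its longest protein-coding transcript has 1071 bases. Per kilobase of the longest coding transcript, a scale added after the deposited lengths had been seen, Oaz1 stood at 422 ± 15.1 with CpdA and 413 ± 8.6 in medium, and Odc1 at 331 ± 5.64 with CpdA and 336 ± 5.64 in medium (SD, n = 3 each). Oaz1 was then the higher of the pair in both groups. Sat1 had a deposited length of 1352 bases against 1162, and Odc1 of 2547 against 2208. Per longest coding transcript in medium, Sat1 stood at 89.3 ± 3.65, above Srm at 77.7 ± 4.54 (SD, n = 3 each). The other 6 genes had lengths within 3 bases of their longest coding transcript. Fold changes of a gene between groups do not depend on its length.

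Ratios within a library show how the genes moved against each other and are given with no test. Odc1 over Azin1 (ratio of FPKM) was 9.31, 10.1 and 9.74 with CpdA and 12.2, 12.6 and 12.4 in medium, so each CpdA library had less Odc1 transcript per Azin1 transcript than any medium library. Srm over Sms was 3.33, 2.98 and 3.24 with CpdA and 2.24, 2.49 and 2.37 in medium, again without overlap. Odc1 over Oaz1 averaged 1.61 ± 0.0847 with CpdA and 1.66 ± 0.0167 in medium (SD, n = 3 each), and Amd1 over Srm averaged 0.262 ± 0.0198 with CpdA and 0.246 ± 0.0175 in medium, both with overlapping groups. Per longest coding transcript, Odc1 over Oaz1 was 0.787 with CpdA and 0.814 in medium.

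**Figure D3:**
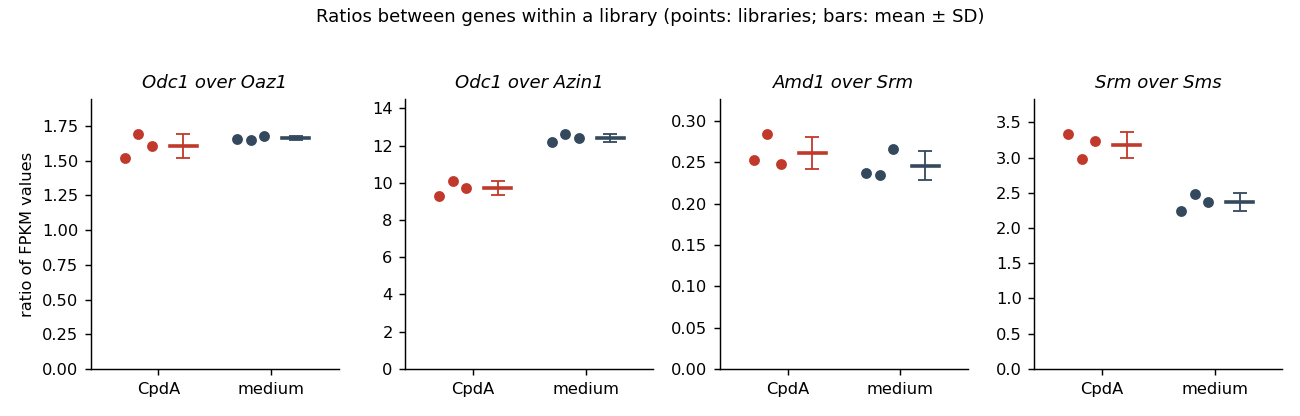
Ratio of the FPKM values of gene pairs within each library (y axes, from 0), each point 1 library and each bar the mean ± SD. CpdA and medium libraries are apart for Odc1 over Azin1 (means 9.71 and 12.4) and Srm over Sms (3.18 and 2.37), and overlap for Odc1 over Oaz1 and Amd1 over Srm.

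Several of these genes have near-identical copies, which could take or give reads. A search of the longest coding transcripts against all GENCODE transcripts (at least 90% identity over 100 bases) found 14 copies of Odc1, 8 of Amd1, 6 of Sms, 2 each of Srm, Oaz2 and Sat1, 1 of Oaz1 and 0 of Azin1 and Dhps. The copies listed in the table summed to at most 1.64% of a gene's own counts (Amd1, 167 against 10177 counts over 6 libraries). Amd2, which is 99.6% identical to Amd1 over 3202 bases, had 7 to 17 counts per library. With no counter named, how reads that match both a gene and its copy were counted is not known. Low counts of a copy therefore do not show that few reads were shared. What this does to the levels of genes with copies, such as Amd1, was not tested. Azin1 shares 358 exonic bases with the antisense gene Gm49077, and Dhps shares 128 with Wdr83, both on the opposite strand. Without a stated strand setting, the reads of such a pair cannot be told apart there. Oaz1 shares 74 exonic bases with the microRNA gene Mir1982 on its own strand. Gm49077 and Mir1982 have no counts here, so their part in the values of Azin1 and Oaz1 was not tested. Wdr83 had 269 to 340 counts per library and a log2 difference of 0.10 ± 0.09 (SE, adjusted p = 0.439, edgeR).

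Outside the 9 genes, 27 further genes of polyamine metabolism were listed by role, of which 24 are in the table and 21 were tested. Of these 7 rose and 2 fell, where 16.5% of all tested genes rose and 16.7% fell, and their median log2 fold change was 0.07, against 0.000 for all tested genes. Together with 10 genes of the MYC and MAX network, 17 of 31 tested genes changed, 9 upwards and 8 downwards, where 33.2% of all tested genes changed. This number was 10 without CpdA replicate 1, without CpdA replicate 3 or without medium replicate 3, 11 without medium replicate 1 and 11 with DESeq2. The lists were chosen with results of these data known, so nothing is read from these counts or from those by role below.

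Of the 7 genes for S-adenosylmethionine supply and for salvage of methylthioadenosine, the by-product of both synthases, 3 rose and 0 fell (median log2 fold change 0.15). Among all tested genes 16.5% rose and 16.7% fell. Mat2a, which makes S-adenosylmethionine, had 67.5, 59.9 and 62.7 FPKM with CpdA and 38.0, 41.6 and 38.3 FPKM in medium. All CpdA libraries were far above the medium libraries, at a log2 difference of 0.68 ± 0.04 (SE, adjusted p = 1.5e-15, edgeR). Mat2b, its regulatory subunit, was at a log2 difference of 0.02 (adjusted p = 0.748). Mtap, the phosphorylase that opens the salvage route, had 17.6, 16.8 and 16.7 FPKM with CpdA and 15.7, 15.5 and 14.7 FPKM in medium (log2 fold change 0.15, adjusted p = 0.0227, edgeR). It passed in 10 of 13 alternative settings, not with DESeq2 (adjusted p = 0.0607) and not without CpdA replicate 1 (0.0899) or medium replicate 3 (0.135). Adi1, a dioxygenase later in that route, rose by 0.18 on the log2 scale (adjusted p = 0.0222) and passed in 9 of 13. It did not pass with DESeq2 (0.0696), nor without CpdA replicate 3 (0.101), medium replicate 1 (0.169) or medium replicate 3 (0.0528). Apip, Enoph1 and Mri1, the other salvage enzymes, stood at log2 differences of 0.23, 0.09 and -0.12 and did not pass (adjusted p = 0.0609, 0.359 and 0.0524).

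The hypusine pathway had 2 of 3 further genes higher and 0 lower, beside 16.5% and 16.7% of all tested genes. The median log2 fold change of these 3 was 0.09. Dohh, the hydroxylase that completes hypusine, had 30.5, 29.2 and 28.2 FPKM with CpdA and 25.0, 27.5 and 25.0 FPKM in medium, without overlap (log2 fold change 0.17, adjusted p = 0.00903, edgeR). It passed in 11 of 13 settings, not without CpdA replicate 1 (adjusted p = 0.0535) or medium replicate 3 (0.0615). Eif5a, the modified factor, was far more abundant than the enzymes. It averaged 1066 ± 45.6 FPKM with CpdA and 1010.1 ± 21.3 FPKM in medium (SD, n = 3 each), with overlapping groups and a log2 difference of 0.07 (adjusted p = 0.0487, edgeR), and passed in 6 of 13 settings. Without CpdA replicate 1 or 3 its adjusted p was 0.253 or 0.167, and without medium replicate 1 or 3 it was 0.195 or 0.117. With DESeq2 it was 0.0527 and with the replicate block 0.154. Eif5a2, its paralogue, was near 3 FPKM, at 0.09 (adjusted p = 0.445).

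Of the 5 tested genes of ornithine supply 1 rose and 0 fell (median log2 fold change 0.07). The shares of all tested genes that rose and fell were 16.5% and 16.7%. Slc7a1, a transporter of arginine, the precursor of ornithine, was at a log2 difference of 0.12 ± 0.03 (SE, adjusted p = 0.00344, edgeR). Aldh18a1 and Oat, which link ornithine to proline and glutamate, stood at log2 differences of 0.07 and 0.03 (adjusted p = 0.119 and 0.587), and the mitochondrial ornithine carrier Slc25a15 had -0.02 (adjusted p = 0.891). The arginases were barely detected. Arg1 had 24, 32 and 28 counts with CpdA and 9, 11 and 30 counts in medium, and Arg2 had 2 to 11 counts per library, too few for the test.

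Of 4 tested catabolic and transport genes 1 rose and 1 fell (median log2 fold change -0.03). Of all tested genes 16.5% rose and 16.7% fell. Atp13a3, a P-type ATPase known in mammals for polyamine uptake, had 26.6, 26.5 and 26.8 FPKM with CpdA and 22.6, 23.3 and 23.4 FPKM in medium. The groups were well apart, at a log2 difference of 0.19 ± 0.03 (SE, adjusted p = 4.5e-06, edgeR). Its lysosomal relative Atp13a2 had -0.08 (adjusted p = 0.225). Smox, which oxidises spermine, was at a log2 difference of -0.08 (adjusted p = 0.0458) and passed in 5 of 13 settings (adjusted p up to 0.193, without medium replicate 1), and the acetylpolyamine oxidase gene Paox had 0.03 (adjusted p = 0.839). Azin2, a second antizyme inhibitor listed under its older symbol Adc, fell by 0.16 on the log2 scale (adjusted p = 0.0410) and passed in 3 of 13 settings (up to 0.140, without CpdA replicate 1). It missed the threshold without any 1 of the 6 libraries. Oaz3, the testis antizyme, had 16 to 36 counts per library.

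The MYC and MAX network, which binds E-boxes and is known to control Odc1 in many cell types, had 2 of 10 genes higher and 6 lower (median log2 fold change -0.15), beside 16.5% higher and 16.7% lower among all tested genes (median 0.000). The lists were chosen with results of these data known, so these counts show nothing particular to the network. Myc had 113, 103 and 115 FPKM with CpdA and 97.8, 107 and 100.2 FPKM in medium. CpdA replicate 2 lay inside the medium range, and the log2 fold change was 0.11 ± 0.04 (SE, adjusted p = 0.0136, edgeR), passing in 9 of 13 settings. Without CpdA replicate 1 or 3 its adjusted p was 0.0702 or 0.106, and without medium replicate 1 or 3 it was 0.0927 or 0.0609. Mycn, a relative of Myc at low level, had 85, 66 and 89 counts with CpdA and 45, 51 and 47 counts in medium. It rose by 0.62 on the log2 scale (adjusted p = 0.0114, edgeR). Without CpdA replicate 1 the rise was 0.49 and missed the threshold (adjusted p = 0.0872). Max, the partner that MYC needs to bind DNA, fell by 0.13 on the log2 scale (adjusted p = 0.0100), but not without CpdA replicate 3 (0.0614).

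Of the tested MAX partners known to oppose MYC or compete with it, Mxd1, Mxd4, Mxi1, Mnt and Mga fell. Mxd4 had 8.98, 9.88 and 8.68 FPKM with CpdA and 16.3, 14.4 and 13.5 FPKM in medium, a clear gap, at a log2 difference of -0.69 ± 0.06 (SE, adjusted p = 2.8e-11, edgeR). Mxd1 and Mxi1 changed by -0.35 and -0.27 (adjusted p = 6.2e-09 and 3.4e-07), and all 3 passed in each of 13 alternative settings. Mnt, a repressor expressed in many tissues, was at a log2 difference of -0.18 (adjusted p = 0.00146), and Mga had -0.11 (adjusted p = 0.0280), passing in 7 of 13 settings (up to 0.287, without CpdA replicate 1). Mxd3 had 0.14 and Mycl -0.62 (adjusted p = 0.273 and 0.0798).

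**Figure D4:**
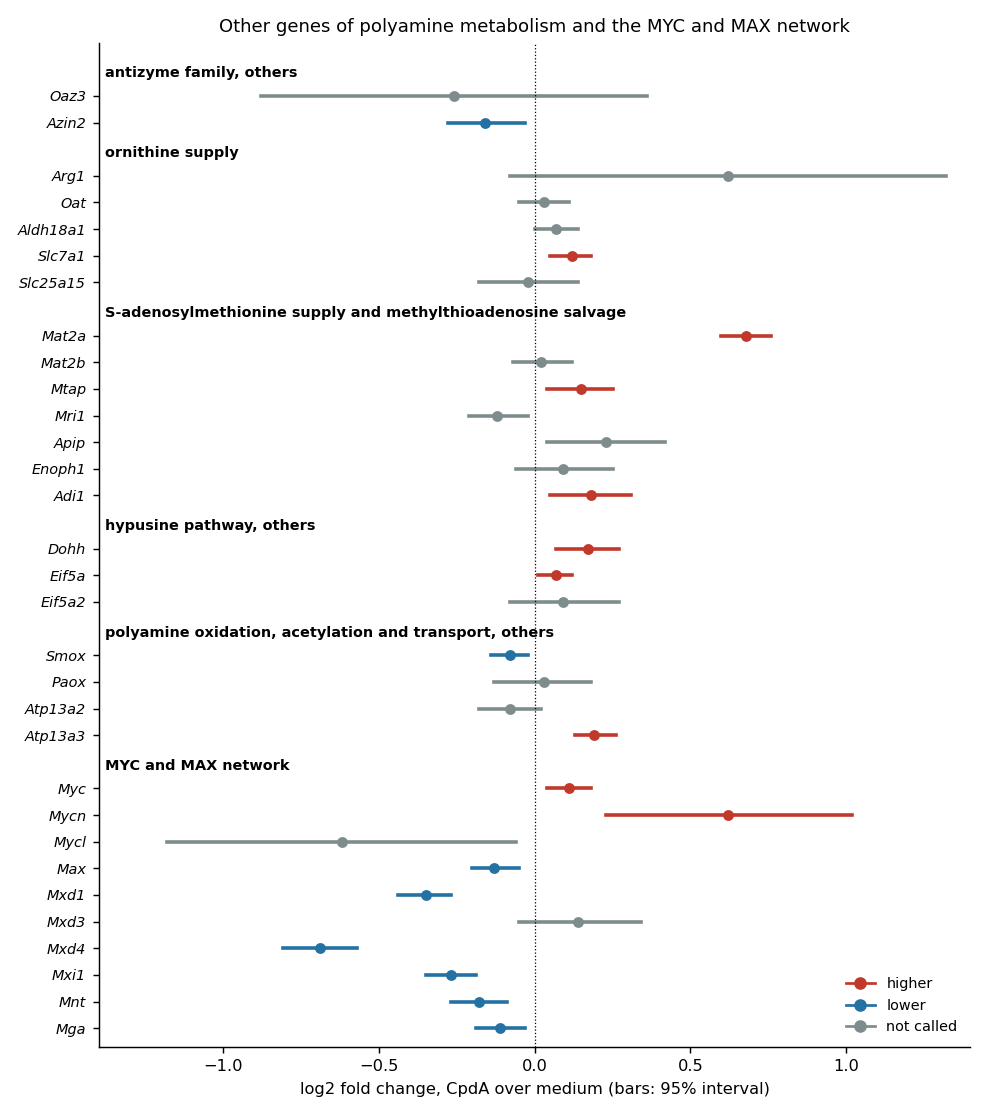
Log2 fold change of CpdA over medium (x axis) with 95% intervals for the 31 tested genes of polyamine metabolism outside the 9 and of the MYC and MAX network (y axis, grouped by role), coloured by the call at an adjusted p of 0.05. Mat2a (0.68) has the highest value and a short interval, that of Arg1 (0.62) is wide and includes 0, and Mxd4 (-0.69), Mxd1 (-0.35) and Mxi1 (-0.27) lie well below 0.

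The tested genes whose log2 CPM followed Odc1 most closely over the 6 libraries were Gm14303, Atpaf1, Wnt11, Phex and Ncoa4 (Pearson's r from 0.978 to 0.984). None of these 5 passed the test between groups. Wnt11 had only 6 to 16 counts per library and Phex 4 to 20, and Odc1 itself varied little (283 to 295 FPKM). The 5 are the highest among 13507 tested genes over only 6 libraries, so counting noise alone can give such r values. Those closest to Amd1 were G3bp1, Ssb, Phf6, Hmgcs1 and Cdr2 (r from 0.996 to 0.998), with log2 fold changes from 0.12 to 0.25. These values are a description: the 6 libraries fall into 2 groups, and genes compared within them share the same depth.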

How the data were processed

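Counts per gene and FPKM values were used as the authors deposited them. CASAVA 1.8, GRCm38 and mm10 appear in the submitters' processing notes. No source used here names an aligner, a counter, an annotation or a strand setting. The deposited FPKM equals the count scaled to deposited gene length and library total, within a relative difference of 1.86e-07. There were 0 per-sample columns without a sample.

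Counts were tested with edgeR 4.0.16 in R 4.3.3 (quasi-likelihood, TMM scaling, robust dispersions, filterByExpr with a minimum count of 10 and total of 15), and p-values were adjusted by Benjamini-Hochberg over all 13507 genes tested. SE is the log2 fold change over the root of the F statistic. A count of 0 in 1 library allows up to 0.148 CPM (3 counts, counting error only). DESeq2 1.42.0, limma-voom (limma 3.58.1), other scalings and filters, a replicate block and leaving out each library were alternatives. The main edgeR fit alone was also run on simulated counts, drawn independently for each library. This run cannot show how the fit behaves if replicates are technical or paired. Copies were searched with BLAST 2.17.0.

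The genes and lists were chosen with earlier results of these data known. Genes named are the 9, every listed pathway gene that passed, a fixed set given whether changed or not (Arg2, Mtap, Eif5a, Dohh, Smox, Paox, Myc, Max), and the 5 genes most like Odc1 and Amd1. Cd4, Wdr83, Amd2 and the other listed genes that did not pass were named after their values were seen.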

Additional observations from a re-analysis of the deposited data

How the results depend on the processing

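Amd1, Srm and Azin1 were higher with CpdA and past the threshold in each of the 13 alternative settings, with log2 fold changes of 0.38 to 0.49, 0.31 to 0.42 and 0.31 to 0.34. Sat1 passed in 11 of 13, and Odc1, Sms, Oaz1, Oaz2 and Dhps in 0 of 13. The log2 fold change of Oaz1 was -0.004 without CpdA replicate 1 and ranged up to 0.05 with other libraries left out. Over all genes, 3448 (DESeq2) to 4538 (library size alone) changed, against 4483. The other pathway genes that changed numbered 11 with DESeq2 and 10 to 17 with 1 library left out, where fewer samples are tested. Scaling by length of the longest coding transcript, chosen after seeing the data, gave Odc1 over Oaz1 as 0.787 with CpdA and 0.814 in medium, and Odc1 over Azin1 as 11.2 and 14.3.

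Whether replicate numbers pair the libraries stayed unresolved. Deviations of same-numbered libraries from their group means had correlations of -0.0213, -0.0147 and -0.0006, and none correlated best with its own number. Correlations between other numbers were also near 0 (0.0228 at most), so this check cannot exclude pairing. In both groups, replicate 1 had the fewest counts and replicate 2 the most. On the first principal component of log2 CPM (44.83% of variance), CpdA replicates 1 to 3 stood at -21.15, -12.44 and -16.68. Medium replicates 1 to 3 stood at 21.28, 12.69 and 16.3, so the same replicate numbers were the most and least extreme in both groups. Whether this order reflects pairing was not tested. With the replicate block, 3936 genes changed, with 4 of the 9 genes and 13 other pathway genes among them. With 3 libraries a group, the 95% interval of Dhps, the widest of the 9, runs from -0.06 to 0.19 on the log2 scale.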
